A study of Homo sapiens with 32 samples.

Results

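The genes described here are the numbered zinc finger genes of human chromosome 19, chosen as protein-coding genes of hg19 chromosome 19 whose symbol is ZNF followed by a number. The rule named 249 of the 20176 protein-coding genes annotated. Of these, 3 are read-through genes that join 2 neighbours, and the other 246 were used. The data are individual nucleotide resolution crosslinking and immunoprecipitation (iCLIP) of 3 mRNA export factors, Alyref, Chtop and Nxf1, and of a Control, with 3 libraries each. In iCLIP, UV light links a protein to the RNA it touches, and the place where the cDNA breaks off marks the contact. Each factor carried a FLAG tag and was made from a transgene in a stable line derived from human embryonic kidney cells, labelled FlipIn HEK293T as the source and FlpIn-293 in the growth protocol. The Alyref and Chtop lines received 10 ng/mL tetracycline to switch on the transgene, the Nxf1 line 5 ng/mL, in each case during 48 h. The Control line carried the FLAG tag alone, and the labels give no tetracycline dose for it. Factor and dose therefore cannot be told apart where Nxf1 is compared with Alyref or Chtop. Nothing in the labels says that the libraries came from separate cultures, so the tests measure the spread between libraries, which may be technical.

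Most of these genes encode C2H2 zinc finger proteins, in which cysteines and histidines hold a zinc ion. Many carry a KRAB domain, which recruits the co-repressor TRIM28 and silences transposable elements, and the genes arose by tandem duplication into clusters. The KRAB domain is usually encoded by small upstream exons and the whole finger array by a single long last exon. Alyref and Chtop belong to the TREX complex, which is loaded on nascent mRNA and hands it to Nxf1, the receptor that takes mRNA through the nuclear pore.

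Among the 243 genes with a canonical transcript, the last exon ran from 431 to 13431 nt with a median of 3302, against a median of 1433 nt in other multi-exon protein-coding genes. The last exon held 87.4% of the exon length, against 55.3% in the other genes, and 84% of the coding bases. The longest, 13431 nt, belonged to ZNF431. Coding sequence held 3058 fingers, with a median of 12 per gene over the 242 genes in which they could be counted. The other was ZNF274, named after its values were seen, whose annotated coding sequence loses its frame on this genome build. ZNF208 had the most complete finger repeats, 33. ZNF442, ZNF714 and ZNF43 had no canonical transcript, so that their exons were counted apart.

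A complete repeat spans 28 codons, from the first cysteine to the end of the linker that joins it to the next finger. Complete repeats numbered 2572, and the linker TGEKP stood in 1321 of them, 51.4%. The stretches printed next are examples of linkers from 6 of the 20 genes with most CPM, and their likeness is not that of all linkers. Less alike ones are not printed, such as HYGEKPYE in ZNF607 and HTVKKLFE in ZNF780B, in residues from the last histidine on. The repeats shown for ZNF460, ZNF587 and ZNF529 are among those without TGEKP. Each runs 5' to 3' on GRCh37, starts with the codon of the last histidine in lower case and goes on with the linker codons in capitals, and each comes from that gene's repeat with most tags:
ZNF460, chr19:57802897-57802920, plus strand: catACTGGGGAGAGGCCCTTTAAG
ZNF146, chr19:36727874-36727897, plus strand: cacACTGGAGAGAAACCCTATGAA
ZNF121, chr19:9677186-9677209, minus strand: catACTGGAGAGAAACCTTATCAA
ZNF587, chr19:58371236-58371259, plus strand: cacACTGGAGAAAGGCCGTATGAA
ZNF266, chr19:9524374-9524397, minus strand: cacACTGGAGAGAAGCCTTTTGAA
ZNF529, chr19:37038527-37038550, minus strand: catACTGATGAGAAAACTTACAAA
The ZNF460 repeat had 35 factor tags, those of ZNF121 and ZNF146 had 26 and 20, and those of ZNF587, ZNF529 and ZNF266 had 17, 15 and 14. Because only uniquely placed reads were kept, repeated sequence limits what could be counted. In the finger repeats 77.2% of bases started a 30 nt stretch found once in the genome. The share was 81.7% over whole last exons and 88.2% over the other exons of these genes, against 89.7% and 95.4% in other genes of chromosome 19. Last exons were thus less mappable than the other exons of the zinc finger genes, and introns were not scored.

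The libraries held 27630 tags in these genes, a tag being a deduplicated read at its crosslinked base. Alyref libraries 1, 2 and 3 had 547, 5689 and 5156 tags. Chtop had 397, 7008 and 6218, Nxf1 had 87, 938 and 1022, and the Control had 57, 346 and 165. Library 1 was the shallowest of every group, and whole libraries held 7017 to 631704 tags, so that values from Nxf1 1 and Control 1 rest on few tags. A count of 0 allowed up to 4.75 tags per 1000000 library tags (CPM) in Alyref 2 but up to 428 CPM in Control 1, taking 3 tags as the limit and counting error only. Of 7 genes known from HEK293T cells, IGF2BP1 and LIN28B had tags in all 12 libraries and NEFM had 1 tag. VIM, CDH2, KRT8 and KRT18 had 227, 213, 74 and 18 tags. Of 6 markers of other cell types, CD3E and PECAM1 had none, and ALB, PTPRC and HBB had 1, 3 and 12. COL1A1 had the most with 47, more than KRT18 and NEFM.

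Tags covered nearly the whole family. At least 1 tag fell in 236 of the 246 genes, with 228 of them, 92.7%, reached by Alyref and the same number by Chtop, 210 by Nxf1 and 156 by the Control. For Nxf1 this was 85.4% and for the Control 63.4% of the family. Among other protein-coding genes 77.8% were reached by Alyref, 76.6% by Chtop, 70.0% by Nxf1 and 52.2% by the Control, so that the family was reached more often in the Control too. Of the 10 genes with no tag, ZNF132 had none on its strand. In the others, including ZNF229, ZNF506, ZNF581 and ZNF626, another gene lay at every tagged base, and such tags were left out. ZNF506 had 100 tags of this kind, ZNF581 97, ZNF229 46 and ZNF626 4. Over the family 6.42% of tags were left out in this way.

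The tags were unevenly shared, with a median of 61 per gene and 27.8% of all tags in the 10 leading genes. ZNF529, ZNF536 and ZNF460 had the most, with 1296, 1090 and 1031 tags. ZNF146, ZNF121 and ZNF224 followed with 817, 702 and 630. The others among the 20 genes with the highest mean CPM over the groups were ZNF875, ZNF8, ZNF507, ZNF544, ZNF331, ZNF607, ZNF587, ZNF850, ZNF586, ZNF283, ZNF780B, ZNF227, ZNF266 and ZNF264, with 217 to 562 tags. ZNF208, for all its fingers, had 8 tags, and ZNF431 had 239. These are tags and not RNA levels: RNA abundance was not analysed here, and more contacts on a gene and more RNA from it cannot be told apart.

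Along chromosome 19 the genes fell into 20 groups when neighbours up to 500 kb apart were joined, 7 of them of 1 gene. The largest stretch by tags, chr19:36673178-38307940, held 26 genes and 6553 tags, a median of 182 per gene. The telomeric group at chr19:57702868-58992597 held 43 genes and 6350 tags with a median of 87. The 37 genes near the centromere, at chr19:19779605-24312770, had 2140 tags and a median of 31. In this last group 49.6% of Chtop tags and 23.6% of Alyref tags lay in last exons, against 71.0% and 37.1% in the group with most tags and 78.5% and 50.9% in the telomeric group. In all 3 groups the Chtop share was the higher. ZNF714 and ZNF43 of the group near the centromere had no canonical transcript, so none of their tags could count in a last exon. ZNF714 had 0, 60 and 45 tags in the Chtop libraries and 1, 55 and 51 in Alyref. ZNF43 had 4, 49 and 19 in Chtop and 3, 40 and 49 in Alyref. The shares of this group are lowered by these tags.

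Chtop libraries gave the family its highest mean share of tags. Zinc finger genes took 1.35%, 1.61% and 1.87% of the protein-coding tags in the Chtop libraries. The shares were 0.998%, 1.11% and 1.12% in Alyref, 1.44%, 1.09% and 0.985% in Nxf1, and 1.08%, 1.07% and 0.878% in the Control. Chtop lay above every Alyref and Control library, while Nxf1 1, with 87 tags, lay within the Chtop range. The Chtop mean of 1.61% ± 0.262 (SD, n = 3) exceeded that of the other factors by 0.489 percentage points (two-sided exact permutation test, p = 0.0476, adjusted p = 0.214). It exceeded the Control by 0.605 points (p = 0.100, exact, the smallest that 3 libraries against 3 allow, adjusted p = 0.450). Adjusted values cover the 18 tests made against the other factors or the 18 against the Control, and none was at or under 0.05. Against the Control none could be, because the exact p of 3 libraries against 3 is never under 0.100. Without the 10 genes with most tags the Chtop differences were 0.311 and 0.377 points. The 260 multi-exon ZNF-numbered genes of other chromosomes also had their highest mean share in Chtop, 2.17% ± 0.175, against 1.42% ± 0.0472 in Alyref, 1.80% ± 0.651 in Nxf1 and 1.48% ± 0.196 in the Control (SD, n = 3). In the chromosome 19 genes Alyref and Nxf1 overlapped the Control, with differences of 0.0675 and 0.164 points (p = 0.500 and 0.400, exact).

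The factors also differed in where on these genes the tags lay. The plot of tags by region gives the shares in every library. Introns held 23.9%, 20.1% and 11.9% of the tags in the Chtop libraries, 31.4%, 35.5% and 39.3% in Alyref, 21.8%, 54.1% and 62.9% in Nxf1, and 40.4%, 64.5% and 64.2% in the Control. Chtop was below every Alyref and Control library and overlapped only Nxf1 1. Its mean was 22.2 points under that of the other factors (exact permutation test, p = 0.0476, adjusted p = 0.214) and 37.7 points under the Control (p = 0.100, exact, adjusted p = 0.450). Alyref was 20.9 points under the Control without overlap (p = 0.100, exact). The order of the group means was the same in other multi-exon protein-coding genes, with 28.8% ± 8.19 in Chtop, 40.7% ± 5.33 in Alyref, 51.7% ± 18.2 in Nxf1 and 67.3% ± 15.2 in the Control (SD, n = 3), and in the ZNF-numbered genes of other chromosomes, with 20.0%, 34.7%, 44.6% and 60%. In pooled tags, last exons held 71.8% of 13623 Chtop tags, 39.4% of 11392 Alyref tags, 31.8% of 2047 Nxf1 tags and 22.9% of 568 Control tags, while the other exons held 6.42%, 15.1%, 4.35% and 5.81%. Last exons of single libraries held 59.2%, 68.2% and 76.7% in Chtop and 66.7%, 35.0% and 25.9% in Nxf1. Nxf1 1 thus lay within the Chtop range. Alyref had 38.5% to 42.4% and the Control 21.7% to 28.1%. By library the other exons took 13.8% to 16.5% in Alyref and 6.26% to 10.3% in Chtop, without overlap, while Control 1 had 21.1% on 12 tags.

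**Figure D1:**
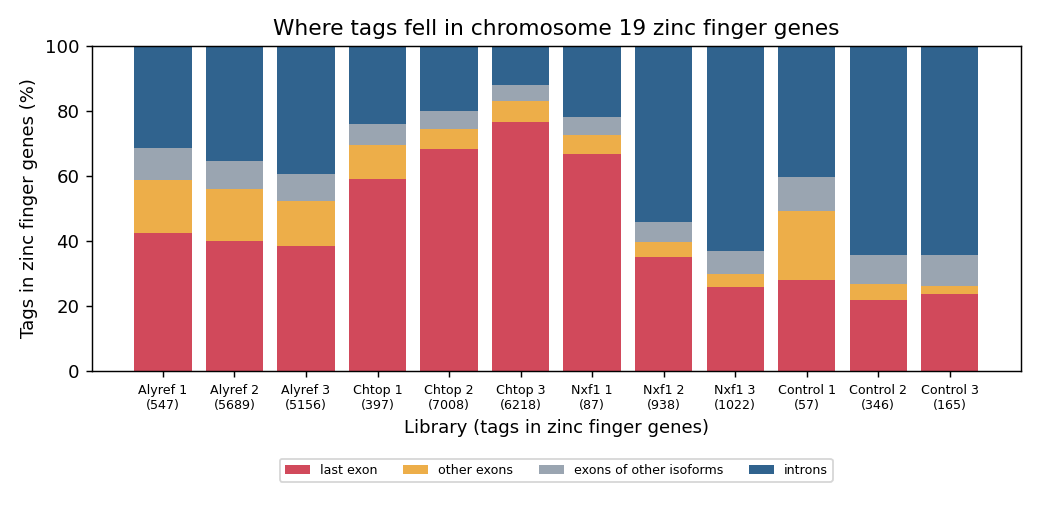
Share of tags in chromosome 19 zinc finger genes, in percent (vertical axis), that fell in the last exon, the other exons of the canonical transcript, exons of other isoforms and introns, for each of the 12 libraries (horizontal axis, with the tags behind each bar). Chtop bars show introns at 11.9% to 23.9%, and the Control bars at 40.4% to 64.5%.

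Length was taken into account by setting tags per nt in the last exon against tags per nt in the other exons, as a log2 ratio with 0.5 tag added. In the Alyref libraries the ratio was -1.44, -1.49 and -1.32, so that a nucleotide of an upstream exon was tagged more often than one of the last exon. It was -0.29, 0.63 and 0.82 in Chtop, 0.61, 0.09 and -0.08 in Nxf1, and -2.40, -0.69 and 0.34 in the Control. All Alyref libraries lay below all Chtop and Nxf1 libraries, whereas Chtop and Nxf1 overlapped. The Control overlapped all 3 factors, with Chtop 2, Chtop 3 and Nxf1 1 above its highest library. The Alyref mean was 1.71 lower on the log2 scale than that of the other factors (-1.41 ± 0.09 SD, n = 3, against 0.30), with an exact permutation p of 0.0238, the smallest possible for 3 libraries against 6, and an adjusted p of 0.214. Against the Control the Alyref difference was -0.50 (p = 0.7, exact), and without Control 3 it turned to 0.13. The Alyref difference from the other factors kept its sign under every alternative run, with -0.89 when exons were merged over all isoforms and otherwise between -1.83 and -1.61. At bases that start a unique 30 nt stretch it was -1.72.

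Other genes showed part of the same order. Their ratio averaged -1.39 ± 0.08 in Alyref, -0.23 ± 0.13 in Chtop and -0.27 ± 0.02 in Nxf1 (SD, n = 3). The zinc finger genes therefore stood level with other genes in Alyref, with an excess of -0.08, 0.00 and 0.01 in the libraries. In Chtop the excess was 0.04, 0.91 and 0.91, and in Nxf1 0.86, 0.35 and 0.21. The Control gave -1.25, -0.11 and 0.44. The Alyref excess was 0.57 below that of the other factors without overlap (exact permutation p = 0.0238, adjusted p = 0.214). This rested on the exon definition, since with exons merged over all isoforms the difference was 0.10 and so of the opposite sign. Among ZNF-numbered genes of other chromosomes, 260 with several exons, the ratio was -1.17 ± 0.12 in Alyref, -0.24 ± 0.14 in Chtop and -0.42 ± 0.31 in Nxf1 (SD, n = 3), and their last exon held 75.1% of exon length. Other chromosome 19 genes had -0.77 ± 0.11 in Alyref, 0.47 ± 0.13 in Chtop and 0.14 ± 0.27 in Nxf1 (SD, n = 3). The zinc finger means were -1.41, 0.38 and 0.21 in the same order. Set against their own chromosome, the zinc finger genes were thus lower in Alyref and not higher in Chtop. Alyref had the lowest mean of the factors in each of these gene sets.

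**Figure D2:**
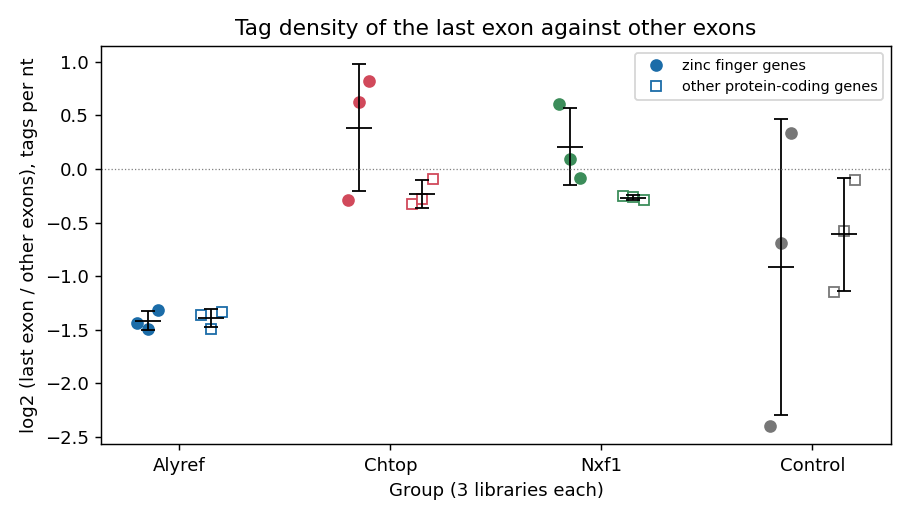
Log2 ratio of tag density (tags per nt) in the last exon to that in the other exons, for 243 chromosome 19 zinc finger genes (filled circles) and 17914 other multi-exon protein-coding genes (open squares), 1 point per library, with mean and SD in black. Alyref libraries lie between -1.49 and -1.32 in the zinc finger genes, below all Chtop and Nxf1 libraries.

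The 2 TREX factors changed in opposite directions across the last junction. In the 150 nt of spliced mRNA before it, the Alyref libraries had 13, 182 and 172 tags, and in the first 150 nt after it 10, 106 and 86. The Chtop libraries had 7, 85 and 83 before and 13, 173 and 172 after. Every Alyref library thus had fewer tags after the junction and every Chtop library more. Other genes with a last exon of at least 1000 nt showed the same step in every library, with 697, 6335 and 5027 tags before and 569, 5034 and 4039 after in Alyref, and 270, 4057 and 3566 before and 355, 6071 and 5528 after in Chtop. Nxf1 had 1, 12 and 12 before and 0, 18 and 12 after, too few to read a direction. Per kb and per 1000000 library tags, pooled Chtop density was 5.50 in the last 50 nt before the junction, 8.42 in the first 50 nt after it, 13.6 from 100 to 150 nt and 15.6 from 500 to 1000 nt. Pooled Alyref density went from 8.23 in the 50 nt before the junction to 5.15 in the 50 nt after it, and lay between 3.61 and 4.99 from there to 3000 nt. In these 11005 other genes, Chtop reached 10.7 from 250 to 500 nt. From 2000 to 3000 nt Chtop was 6.27 in them and 11.9 in the zinc finger genes. The other groups were also denser in the zinc finger genes there. Alyref had 4.27 against 2.74, Nxf1 2.90 against 2.42 and the Control 2.15 against 1.19. These profiles are pooled over libraries and were not tested.

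**Figure D3:**
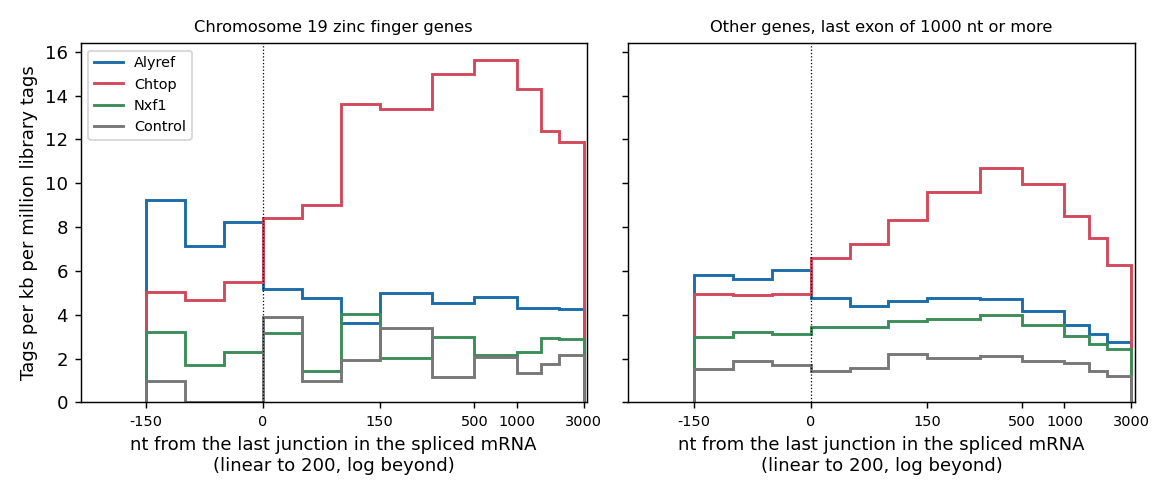
Tags per kb per 1000000 library tags (vertical axis) against the distance from the last exon-exon junction in the spliced mRNA (horizontal axis, linear to 200 nt and logarithmic beyond), pooled over the 3 libraries of each group, for zinc finger genes (left) and other genes with a last exon of 1000 nt or more (right). Chtop density in the zinc finger genes climbs from 8.42 in the first 50 nt to 15.6 at 500 to 1000 nt, while Alyref is at 8.23 just before the junction and 5.15 just after it.

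Gene by gene, most last exons had the larger share in Chtop. In 91 zinc finger genes with at least 20 exonic tags in both pooled sets, the last exon held a median of 76.7% of exonic tags in Alyref and 94.9% in Chtop. The Chtop share was higher in 87 of them, 95.6%, equal in 3 and lower in 1. The gene with the lower share was ZNF749, named after its values were seen, with 82.9% of 82 Chtop tags and 88.1% of 42 Alyref tags. In 5141 other genes that met the same minimum the Chtop share was higher in 87%, with medians of 33.3% in Alyref and 58.8% in Chtop. ZNF266 had 45.0% of 100 exonic tags in Alyref and 94.7% of 152 in Chtop. In ZNF507, whose last exon is 64.2% of its exon length, the shares were closer, 45.4% and 52.6%. ZNF536, whose canonical last exon holds 18.2% of exon length, had 0 tags there in any library. Its 1090 tags lay mostly in introns, which held 889.

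**Figure D4:**
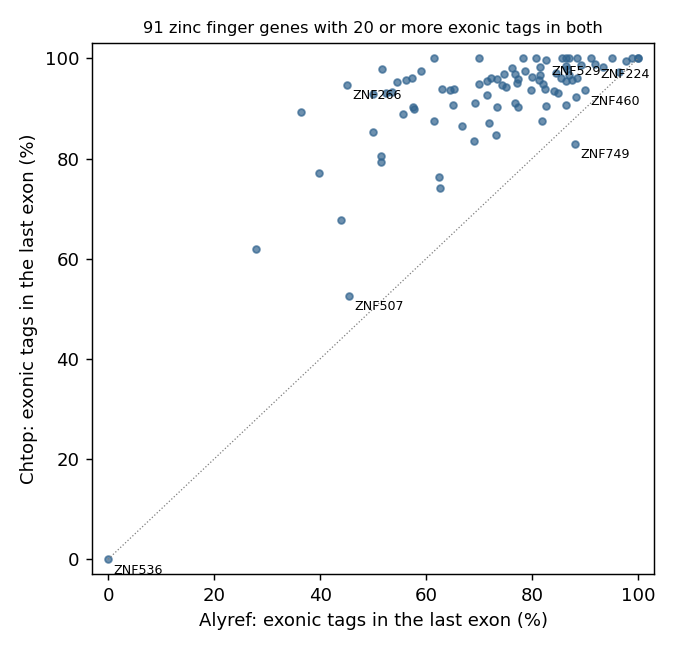
Share of exonic tags in the last exon for each of 91 zinc finger genes with 20 or more exonic tags in both factors, Chtop (vertical axis, percent) against Alyref (horizontal axis, percent), each pooled over 3 libraries, with a dotted line for equal shares. Of the 91 genes, 87 lie above the line, ZNF536 lies at 0 on both axes and ZNF749 is the gene below it.

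Inside the last exon, pooled Chtop tags were denser in the coding part than in the 3' UTR. As pooled tags, not scaled to depth and so to be read within a group, Chtop had 14.7 per kb in the finger repeats, 12.6 per kb in the rest of the coding part and 9.81 per kb in the 3' UTR. Alyref had 5.68, 5.72 and 4.93 per kb in the same order, and 14.1 per kb in its other exons. Chtop had 7.20 per kb there, the lowest of its 4 regions. Nxf1 was even, at 0.744, 0.728 and 0.778 per kb. The 3' UTR took 51.9%, 50.9% and 48.9% of last-exon tags in the Chtop libraries, 50.4%, 54.8% and 55.6% in Alyref, 49.1%, 61.0% and 60.5% in Nxf1, and 53.3%, 54.8% and 64.1% in the Control, where 58.5% of the length was 3' UTR. Chtop was under every Control library, with a difference in means of -6.84 points (exact permutation p = 0.100, adjusted p = 0.450). Against the other factors the Chtop difference was -4.66 points with overlap (exact p = 0.190). The 3' UTR part holds more uracil than the coding part, 30.4% against 23.9%.

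Uracil marked the tags throughout. At the deposited base itself its share of the tags in these genes was 58.0% in Alyref, 57.1% in Chtop, 60.5% in Nxf1 and 59.9% in the Control, more than at any of the 5 bases to either side. In last exons, which are 27.7% uracil, it stood at 56.3% of Alyref and 57.0% of Chtop tags. Bases with many factor tags in last exons are printed with 10 nt on either side, 5' to 3' on GRCh37 with T for uracil and the crosslinked base in capitals. Genes shown are 4 of those that hold the 12 bases with most tags, and are shown to give the sequence around such bases:
ZNF460, chr19:57804334-57804354, plus strand, 3' UTR: ttgactttttTaaaaaaattg
ZNF146, chr19:36727825-36727845, plus strand, coding: tggaacagccTttggccagaa
ZNF121, chr19:9675996-9676016, minus strand, 3' UTR: aatacacattCttttctcaag
ZNF224, chr19:44613070-44613090, plus strand, 3' UTR: ttttttctttTaaattttttt
The ZNF460 base had 9 Chtop tags, 1 Alyref tag and 0 Nxf1 tags. The ZNF146 base lies in a finger repeat and had 3, 2 and 1. The ZNF121 base had 4 Chtop tags and 1 Alyref tag, and the ZNF224 base 4 Chtop tags and 1 Nxf1 tag. The 10 factor tags at the ZNF460 base were the most at any base of these last exons.

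The finger repeat, summed over its 2572 copies, showed where along a finger the tags lay. It had 1160 Alyref and 3007 Chtop tags, but 152 Nxf1 and 32 Control tags. Codon 8, which encodes phenylalanine in 96.0% of repeats and is 83.9% uracil, took 11.1% of Alyref and 10.6% of Chtop tags. Codon 27 of the linker, tyrosine in 84% and 53.9% uracil, took 6.81% and 8.11%. Codon 25, lysine in 80.3% and 0.752% uracil, took 1.29% and 1.50%. Over the 28 codons the share of uracil and the share of tags had Pearson's r of 0.80 for Alyref and 0.82 for Chtop, with Spearman's rho of 0.71 and 0.83. This is a description over codons that share the same libraries. The linker, codons 22 to 28, is 25% of the length and holds 15.9% of the uracils. It took 12.9%, 18.1% and 20.0% of repeat tags in the Alyref libraries, 15.3%, 20.0% and 20.2% in Chtop, 11.1%, 18.1% and 14.5% in Nxf1, and 0%, 13.6% and 28.6% in the Control. All groups overlapped, and the Chtop difference from the other 2 factors came to 2.71 points (exact permutation p = 0.286). With 24 Nxf1 and 5 Control tags in linkers, no difference was detectable at this depth.

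**Figure D5:**
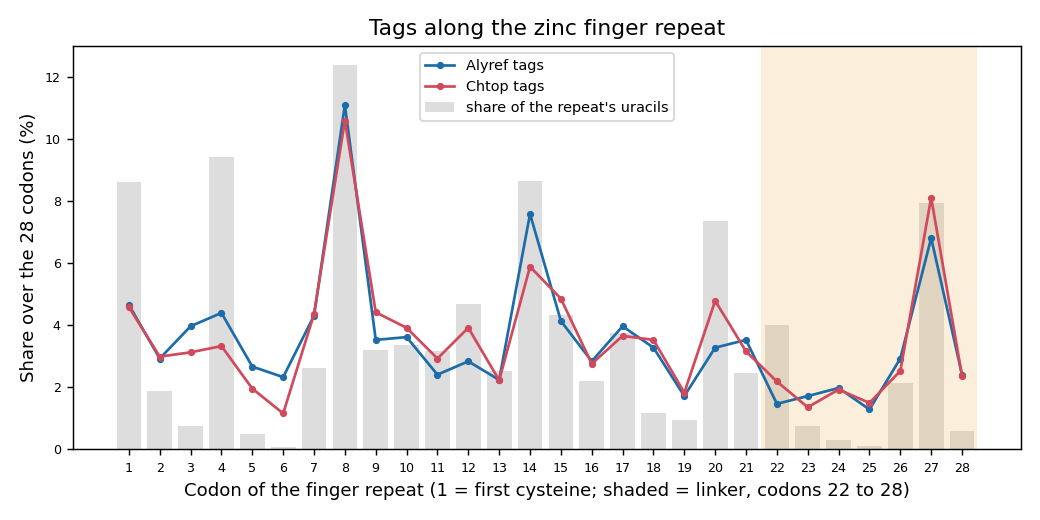
Tags along the 28 codons of the finger repeat (horizontal axis, codon 1 is the first cysteine), as percent of all repeat tags of Alyref and of Chtop, each pooled over 3 libraries, with grey bars for the share of the repeat's uracils in each codon and shading for the linker. Both lines peak at codon 8, with 11.1% of Alyref and 10.6% of Chtop tags.

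Single genes were tested on their tags with edgeR's quasi-likelihood test over all 3364 genes that passed the filter on low counts. Only 30 of the 246 zinc finger genes passed. A gene could pass through the group where it was high, so the counts among the 30 describe them and are not a result about the family. Every comparison among the factors shares libraries with another, and those against Control share the Control. At an adjusted p of at most 0.05 (Benjamini-Hochberg), 15 were lower in Alyref than in Chtop, where 10.0% of all genes tested were. In the same test 14 were higher in Chtop than in Control, where 9.19% of all genes were, and 14 were higher in Chtop than in Nxf1, where 15.1% were. None was called in Alyref against Control (background 0.119%), Nxf1 against Control (0.0297%) or Alyref against Nxf1 (4.79%), where 6, 3 and 4 had an unadjusted p under 0.05 and DESeq2 called 0. The median log2 fold change of the 30 was -0.88 in Alyref against Chtop and 1.67 in Chtop against Control, against 0.02 and 0.16 over all genes. Among 43 ZNF-numbered genes of other chromosomes, 12 were lower in Alyref than in Chtop and 1 was higher, and among 142 other chromosome 19 genes 11 were lower and 16 higher.

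The counts moved with single libraries. Of genes lower in Alyref than in Chtop there were 4 without Alyref 2, 4 without Alyref 3, 4 without Chtop 3, and 23 without Chtop 1 or without Control 3. Of genes higher in Chtop than in Control there were 4 without Control 3, 5 without Control 2 and 8 without Chtop 3. For Chtop against Nxf1 the count was 4 without Nxf1 3, 6 without Chtop 3, 9 without Nxf1 2, and 22 or 23 without Alyref 1 or any Control library. DESeq2 called 4, 4 and 6 in these comparisons, where it called 1.61%, 2.50% and 4.73% of all genes in the same directions. On exonic tags alone 1 gene was higher in Chtop than in Control and 7 were higher in Chtop than in Nxf1. For the fits on exonic tags or with 1 library left out, the share of all genes called is not given here. Those counts therefore cannot tell a loss among the zinc finger genes from a general loss of calls. With the shallowest library of every group left out, 122 zinc finger genes were tested. Of these 41 were lower in Alyref than in Chtop, where 9.59% of the 8652 genes of that fit were. Higher in Chtop than in Control were 18, against 6.44% of all genes, and higher in Chtop than in Nxf1 were 32, against 11%.

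ZNF460 had the smallest p of the zinc finger genes in each of the 3 comparisons that gave calls. Its level was 361, 635 and 917 CPM in the Chtop libraries, 234, 195 and 148 in Alyref, 369, 210 and 83.6 in Nxf1 and 0, 64.3 and 27 in the Control. Chtop was above every Alyref and Control library and overlapped Nxf1 1, which had 3 tags on it. The log2 fold change was -2.0 ± 0.33 (SE) in Alyref against Chtop (edgeR quasi-likelihood, adjusted p = 0.000139), 2.03 ± 0.39 in Chtop against Nxf1 (adjusted p = 0.000389) and 3.89 ± 0.62 in Chtop against Control (adjusted p = 0.000216). On exonic tags alone the difference from Nxf1 was 0.98 (edgeR, adjusted p = 0.00969).

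ZNF224, which encodes a KRAB zinc finger repressor, had 553, 380 and 421 CPM in Chtop, 135, 138 and 139 in Alyref, 123, 143 and 55.8 in Nxf1 and 0, 150 and 27 in the Control. The Chtop libraries stood apart from all others. The log2 fold change was -1.78 ± 0.31 in Alyref against Chtop (edgeR, adjusted p = 0.000268), 2.04 ± 0.40 in Chtop against Nxf1 (adjusted p = 0.000489) and 2.28 ± 0.53 in Chtop against Control (adjusted p = 0.00579). On exonic tags alone it was 1.26 against Nxf1 (edgeR, adjusted p = 0.0108) and 1.48 against Control (adjusted p = 0.121). Against Control it was 4.25 without Control 2 and 1.98 without Control 3 (edgeR, adjusted p = 0.00835 and 0.0635).

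ZNF550 had 128, 119 and 189 CPM in Chtop and 12.3, 50.7 and 36.5 in Alyref, without overlap. The log2 fold change of Alyref against Chtop was -2.01 ± 0.38 (edgeR, adjusted p = 0.000632). ZNF558 had 106, 139 and 240 CPM in Chtop, 111, 91.8 and 66.3 in Alyref and 123, 25.2 and 11.2 in Nxf1, and no Control library had a tag on it. Pooled Chtop tags, 183, put it at least 5.44-fold higher than the Control, taking 3 tags over the group as the floor. Against Nxf1 its log2 fold change was 2.93 ± 0.57 (edgeR, adjusted p = 0.000575), although Nxf1 1 lay within the Chtop range.

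ZNF529, the gene with most tags, had 298, 644 and 680 CPM in Chtop, 320, 418 and 448 in Alyref, 738, 227 and 190 in Nxf1 and 0, 193 and 189 in the Control, with Alyref and Chtop overlapping. It was higher in Chtop than in Control (1.68 ± 0.47, edgeR, adjusted p = 0.0166), though not past the threshold on exonic tags alone (0.91, adjusted p = 0.270) or without Control 2 (1.92, adjusted p = 0.0657). ZNF146, which has fingers but no KRAB domain, had 234, 406 and 456 CPM in Chtop, 197, 252 and 259 in Alyref and 143, 129 and 27 in the Control. Chtop overlapped Alyref and lay above the Control, with a log2 fold change of 2.11 ± 0.50 (edgeR, adjusted p = 0.00642), which was not past the threshold without Control 3 (1.81, adjusted p = 0.0745) or on exonic tags alone (1.95, adjusted p = 0.0637). The log2 fold change of Alyref against Chtop was -0.80 ± 0.28 (edgeR, adjusted p = 0.0451), and the call was lost without any 1 of 7 libraries, among them all 3 of Alyref, where adjusted p ran from 0.0525 to 0.324. ZNF536, tagged mostly in introns, had 570, 600 and 433 CPM in the Control, 172, 443 and 467 in Alyref, 191, 418 and 212 in Chtop and 492, 445 and 468 in Nxf1. All Chtop libraries lay below all Control libraries in this gene, and Nxf1 and Control overlapped. The log2 fold change of Chtop against Control was -0.89 ± 0.41 and not past the threshold (edgeR, adjusted p = 0.125). The Control values rest on 4, 28 and 16 tags.

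Last exons were also tested as features of their own, together with the other exons and introns of each gene, 2116 features in all. Of the zinc finger last exons 12 passed the filter. All 12 were lower in Alyref than in Chtop, where 80.6% of the 330 last exons tested were, and all 12 were higher in Chtop than in Nxf1, again with 80.6% of last exons. None was called in Alyref against Nxf1, where 12.1% were, with 2 at an unadjusted p under 0.05 and 0 by DESeq2. The median log2 fold change of Alyref against Chtop was -1.97 in the 12 and -1.74 in all 330. These 12 could pass the filter through Chtop, where they were high, so the counts and the median describe them and no more. The count of lower last exons was 0 without Alyref 2, 1 without Alyref 3 and 5 without Chtop 3, and 19 to 27 without Alyref 1, Chtop 1, Nxf1 1 or any Control library. For Chtop against Nxf1 it was 20 to 26 without Alyref 1, Chtop 1, Nxf1 1 or any Control library. It was 8 without Chtop 2 or Chtop 3, 10 without Nxf1 3, and 11 without Alyref 2, Alyref 3 or Nxf1 2. The share of all last exons called with 1 library left out is not given here. Without the shallowest library of every group, 66 of 74 zinc finger last exons tested were lower in Alyref than in Chtop, where 71.9% of all last exons were.

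The last exon of ZNF550 had the smallest p, with 5, 63 and 76 tags in the Chtop libraries and 1, 25 and 20 in Alyref (log2 fold change -2.49 ± 0.47, edgeR, adjusted p = 1.84e-05). That of ZNF558 had 5, 65 and 87 against 5, 28 and 17 tags (log2 fold change -2.36 ± 0.47, edgeR, adjusted p = 3.55e-05). In ZNF266 there were 5, 71 and 68 against 4, 18 and 23 (log2 fold change -2.37 ± 0.48, edgeR, adjusted p = 4.85e-05). These tag numbers are not scaled, whereas the folds are. Every Alyref library was deeper than the Chtop library it is listed beside, and the folds also carry the fit's own scaling between libraries. With no filter on low counts, which raised the last exons tested to 12347, adjusted p was 0.0673, 0.0985 and 0.0901 for these 3 (edgeR). Against Nxf1, the last exon of ZNF780B gave the smallest p, with 5, 112 and 98 Chtop tags and 0, 4 and 0 Nxf1 tags (log2 fold change 4.14 ± 0.71, edgeR, adjusted p = 5.01e-07). Without Nxf1 2, which held all 4, it was 8.80, a value that depends on the prior count.

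Of 18 genes that act with KRAB zinc finger proteins in silencing, 14 were tested. Called were 2 of 14 (14.3%) in Alyref against Chtop, lower in Alyref, where 10.0% of all genes were. Higher in Chtop were 2 of 14 (14.3%) against Control, with 9.19% of all genes, and 4 of 14 (28.6%) against Nxf1, with 15.1%. CBX3 and CBX5, which encode heterochromatin protein 1, were lower in Alyref than in Chtop (-1.47 ± 0.30 and -0.91 ± 0.30 on the log2 scale, edgeR, adjusted p = 0.00113 and 0.0333) and higher in Chtop than in Control (1.94 ± 0.67 and 1.99 ± 0.58, adjusted p = 0.0449 and 0.0205). CHD3, a chromatin remodeler, was higher in Chtop and in Alyref than in Nxf1 (3.45 ± 0.71 and 2.81 ± 0.75, edgeR, adjusted p = 0.000910 and 0.0242). CBX3, HDAC1 and MORC2 were also higher in Chtop than in Nxf1 (1.11 ± 0.40, 1.25 ± 0.45 and 1.17 ± 0.43, edgeR, adjusted p = 0.0386, 0.0365 and 0.0401). TRIM28 itself, named outside the rule, was not past the threshold in any comparison, with 1.59 ± 0.63 in Chtop against Control (edgeR, adjusted p = 0.0802). The median of the 14 in Alyref against Chtop was -0.05.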

How the data were processed

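The deposited files were tables of tag counts per crosslinked base, 1 per library, and per the study's methods the authors made them as follows. Reads of phiX were removed with Bowtie 1.1.2, molecular identifiers were handled with UMI-tools 0.5.3, libraries were separated and trimmed with Reaper, and reads were mapped with STAR 2.4.2a to hg19, keeping unique placements. Reads sharing a position and an identifier were collapsed, and 32 lane runs were merged into the 12 libraries. The 4 files pooled over replicates were not used, and 0 columns of single samples were left unused.

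Tags were given to genes of GENCODE 44 lifted to GRCh37 by strand, leaving out tags in more than 1 gene and 663 read-through genes, a choice made after the annotation and tags were seen. The canonical transcript set last and other exons. The genes and lists were chosen with earlier results of these data known. Genes named are the 20 with most CPM, the 3 with smallest p in each comparison and direction, up to 5 without tags, the longest last exon, the most repeats, and called co-repressor genes.

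For each library, 6 measures were compared by exact permutation tests, 84 arrangements against the other factors and 20 against Control. Counts were tested with edgeR 4.0.16 (quasi-likelihood, trimmed mean of M-values scaling, filterByExpr, all 12 libraries in 1 fit) in R 4.3.3, with Benjamini-Hochberg adjustment over all features tested, and with DESeq2 1.42.0 as an alternative. The edgeR fit was tested on simulated counts. Limits for counts of 0 cover counting error only. Other alternatives were leaving out each library, the replicate block, counting each base once, keeping overlaps or read-through genes, merged exons, unique bases, other comparison genes, a wider linker, another pseudocount, size-factor scaling, no filter and exonic tags only.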

Additional observations from a re-analysis of the deposited data

How the results depend on the processing

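Over 36 comparisons of the 6 measures, 550 of 588 values under an alternative kept their direction and 38 did not. An adjusted p at or under 0.05 was reached by 0, which the number of libraries largely fixed in advance. Tests against Control could not give a p under 0.100, nor those in the replicate block one under 0.0741. Against the other factors the smallest possible p was 0.0238 before adjustment over 18 tests. Of 1077 alternative values of 62 named fold changes, 907 stayed past the threshold, 170 did not and 0 changed sign. The cause was not tested for any of these. Depth limits the Control and Nxf1 values, whose libraries held 57 to 1022 tags in these genes.

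For Alyref against the other factors, the 3' UTR difference of -0.132 became 0.0444 with each base counted once, 0.543 with only hyphenated read-through genes left out, 0.105 with all kept, 0.937 without the 10 genes with most tags and 0.103 with merged exons, and ran from -1.12 to 1.45 with 1 library left out. The linker difference of 0.469 became -0.594 with only hyphenated read-through genes left out, -0.277 without the 10 genes and -0.256 with the wider window (left-out range -1.05 to 2.54). The excess of -0.57 became 0.10 with merged exons, and the intron difference of 2.96 ran from -1.14 to 9.06. For Nxf1 against the other factors, the excess of 0.18 became -0.13 with merged exons and -0.18 without the shallowest libraries (range -0.019 to 0.31). Against Control, the Alyref excess of 0.29 became -0.033 against chromosome 19 genes and -0.16 without the shallowest libraries (range -0.18 to 0.66), and the Alyref ratio ran from -1.24 to 0.13. The Nxf1 intron difference ran from -18.4 to 2.14, and its 3' UTR difference of -0.533 became 1.31 without the shallowest libraries (range -2.62 to 3.34). The linker difference from Control became -1.70 without the 10 genes and -2.04 without the shallowest libraries in Alyref (range -4.11 to 10.2), and -1.0 without the shallowest libraries in Chtop (range -2.61 to 11.7). In Nxf1 it became -0.216 with overlaps kept, -1.35 with read-through genes kept, -3.16 without the 10 genes and -4.82 without the shallowest libraries (range -6.54 to 7.74).

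Genes called in Chtop against Control numbered 4 with DESeq2 and 1 on exonic tags, and 4 to 17 with 1 library left out. In Alyref against Chtop they numbered 4 with DESeq2 and 41 without the shallowest libraries, and 4 to 23 with 1 left out. In Chtop against Nxf1 they numbered 6 with DESeq2, 22 with no filter, 33 in both directions without the shallowest libraries and 7 on exonic tags, and 4 to 23 with 1 left out. In Alyref against Nxf1 they numbered 3 without the shallowest libraries and 0 to 3 with 1 left out. Of all genes in the fit without the shallowest libraries, 2.27% were higher in Alyref and 2.39% lower. The counts on exonic tags or with 1 library left out stand without the share of all genes called in the same fit. Without the shallowest libraries, 74 zinc finger last exons were tested. Called were 66 in Alyref against Chtop, 4 in Alyref against Nxf1 and 68 in Chtop against Nxf1. Of all last exons, 71.9% were lower in Alyref than in Chtop and 61.3% higher in Chtop than in Nxf1. In Alyref against Nxf1, 4.19% were higher and 1.74% lower. With 1 library left out the ranges were 0 to 27, 0 to 2 and 8 to 26, without the share of all last exons called. With no filter, 28 of 220 were called in Chtop against Nxf1, where 5.09% of all last exons were higher in Chtop.

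With the replicate number as a block, 12 of 30 genes instead of 15 were lower in Alyref than in Chtop. In that fit 8.23% of all genes were. Higher in Chtop were 14 of the 30 against Control and 14 against Nxf1, with 9.33% and 14.4% of all genes. Of 12 last exons tested, 11 were lower in Alyref than in Chtop, where 72.4% of all last exons were. All 12 were higher in Chtop than in Nxf1, where 77.0% were. Libraries with the same number had correlations of their deviations from -0.169 to 0.249 over 18 pairs. Pairs with different numbers ran from -0.274 to 0.233, so the numbers were not taken to pair the samples. By the labels, the replicate 2 libraries of every group were run on other HiSeq lanes than replicates 1 and 3. The smallest p of the permutation tests within the replicate block was 0.0741 against the other factors and 0.250 against Control.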

Other observations

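Intronic tags of the zinc finger genes fell on uracil more often than exonic ones in every group, with 64.6% in Alyref, 62.5% in Chtop, 66.9% in Nxf1 and 65.1% in the Control, where introns are 30.7% uracil. In the other exons, which are 21.9% uracil, the values were 46.9%, 46.5%, 42.7% and 45.5%. In the finger repeats, 24.2% uracil, Alyref and Chtop had 47.5% and 50.6%. The Control thus had as high a uracil share in introns as the factors, on 352 tags.

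Last-exon shares are given here for 3 further clusters. The 2 genes at chr19:42572629-42732353 had 80.5% of Alyref tags in last exons and 94.8% of Chtop tags, on 156 tags in all. The 13 genes at chr19:8574562-9903856, among them ZNF121, ZNF266 and ZNF558, had 51.8% and 86.0%, and the 25 genes at chr19:11594242-12750912 had 34.7% and 68.2%, with medians of 84 and 26 tags per gene. These shares are pooled over libraries and were not tested.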
